A study of Coprinopsis cinerea with 29 samples.

Results

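In the ink cap mushroom Coprinopsis cinerea, 14 of the 12003 gene models of the deposited expression table had higher transcript levels in the cap and lamellae of the fruiting body than in its stipe and in every earlier stage. They were selected on these levels. A gene model was kept where its lowest median among young cap, young lamellae and mature cap with lamellae was at least 0.8 above its highest median among the 6 other groups, on the scale of log2(RPKM + 1), and where the 3 cap-side medians spanned less than 2. RPKM is the number of reads scaled to the length of the gene model and the size of the library, so it compares genes of unlike length. The 14 gene models amount to 0.117% of the table. Their choice depends on a further scaling factor per library in the deposited values, described below. With library size alone, the rule kept 3 gene models and none of the 14.

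The cap of this mushroom carries the lamellae, or gills, whose surface layer, the hymenium, bears the basidia. In the basidia nuclei fuse and undergo meiosis, and spores form on their tips, while the stipe elongates and lifts the cap. Late in development the ripe cap digests itself, which frees the spores. Cap, lamellae and stipe thus arise from 1 primordium and take up unlike tasks.

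All libraries came from strain #326 (A43mut B43mut pab 1-1), mutated in both of its mating-type factors so that it fruits without a mate, so the levels are those of a self-fertile laboratory strain. Colonies on YMG/T agar were grown for 5 days at 37 °C in darkness and then fruited at 25 °C in cycles of 12 h of light and 12 h of dark. The 6 groups on the low side were vegetative mycelium (VM, n = 3), secondary hyphal knots, the dense hyphal aggregates from which fruiting bodies start (H, n = 3), stage 1 and stage 2 primordia (P1 and P2, n = 4 each), and the stipes of young and of mature fruiting bodies (YFB_S and FB_S, n = 3 each). The 3 groups on the high side were the cap and the lamellae of young fruiting bodies (YFB_C and YFB_L, n = 3 each) and the undivided cap with lamellae of the mature fruiting body (FB_CL, n = 3). The labels call the latter stage only fruiting body, and mature is used here to tell it from young.

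Libraries held 10736371 to 32199674 counted reads, with a median of 20227323. The library of YFB_C replicate 3 correlated with the others of its group at 0.928 at most across genes, and that of YFB_L replicate 1 at 0.885 at most, where the libraries of the other groups reached 0.943 or more. The rule and the pairwise tests were also run without these 2 libraries. The differences and the order of cap-side groups given below include them. The gene identifiers are numbers of the genome project, and 0 of 14242 matched a reference table of another strain, so no gene names, functions, genome positions or sequences are given for the 14 gene models, and the labelled tissues were not checked against defining markers. In tissue that mixes cells, fewer cells of a type and less RNA per cell cannot be told apart.

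The name of the set holds only in part. The 14 gene models had higher medians in cap and lamellae, but all were also read in the young stipe. In the young stipe their medians ran from 0.321 RPKM for 462778 to 154 RPKM for 499369, and the young stipe was the highest of the 6 low groups for 6 gene models. The mature stipe was the highest for 4, stage 2 primordia for 3 and stage 1 primordia for 1. Only 462778 had a library with 0 reads among the 20 of the low groups, FB_S replicate 2.

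**Figure D1:**
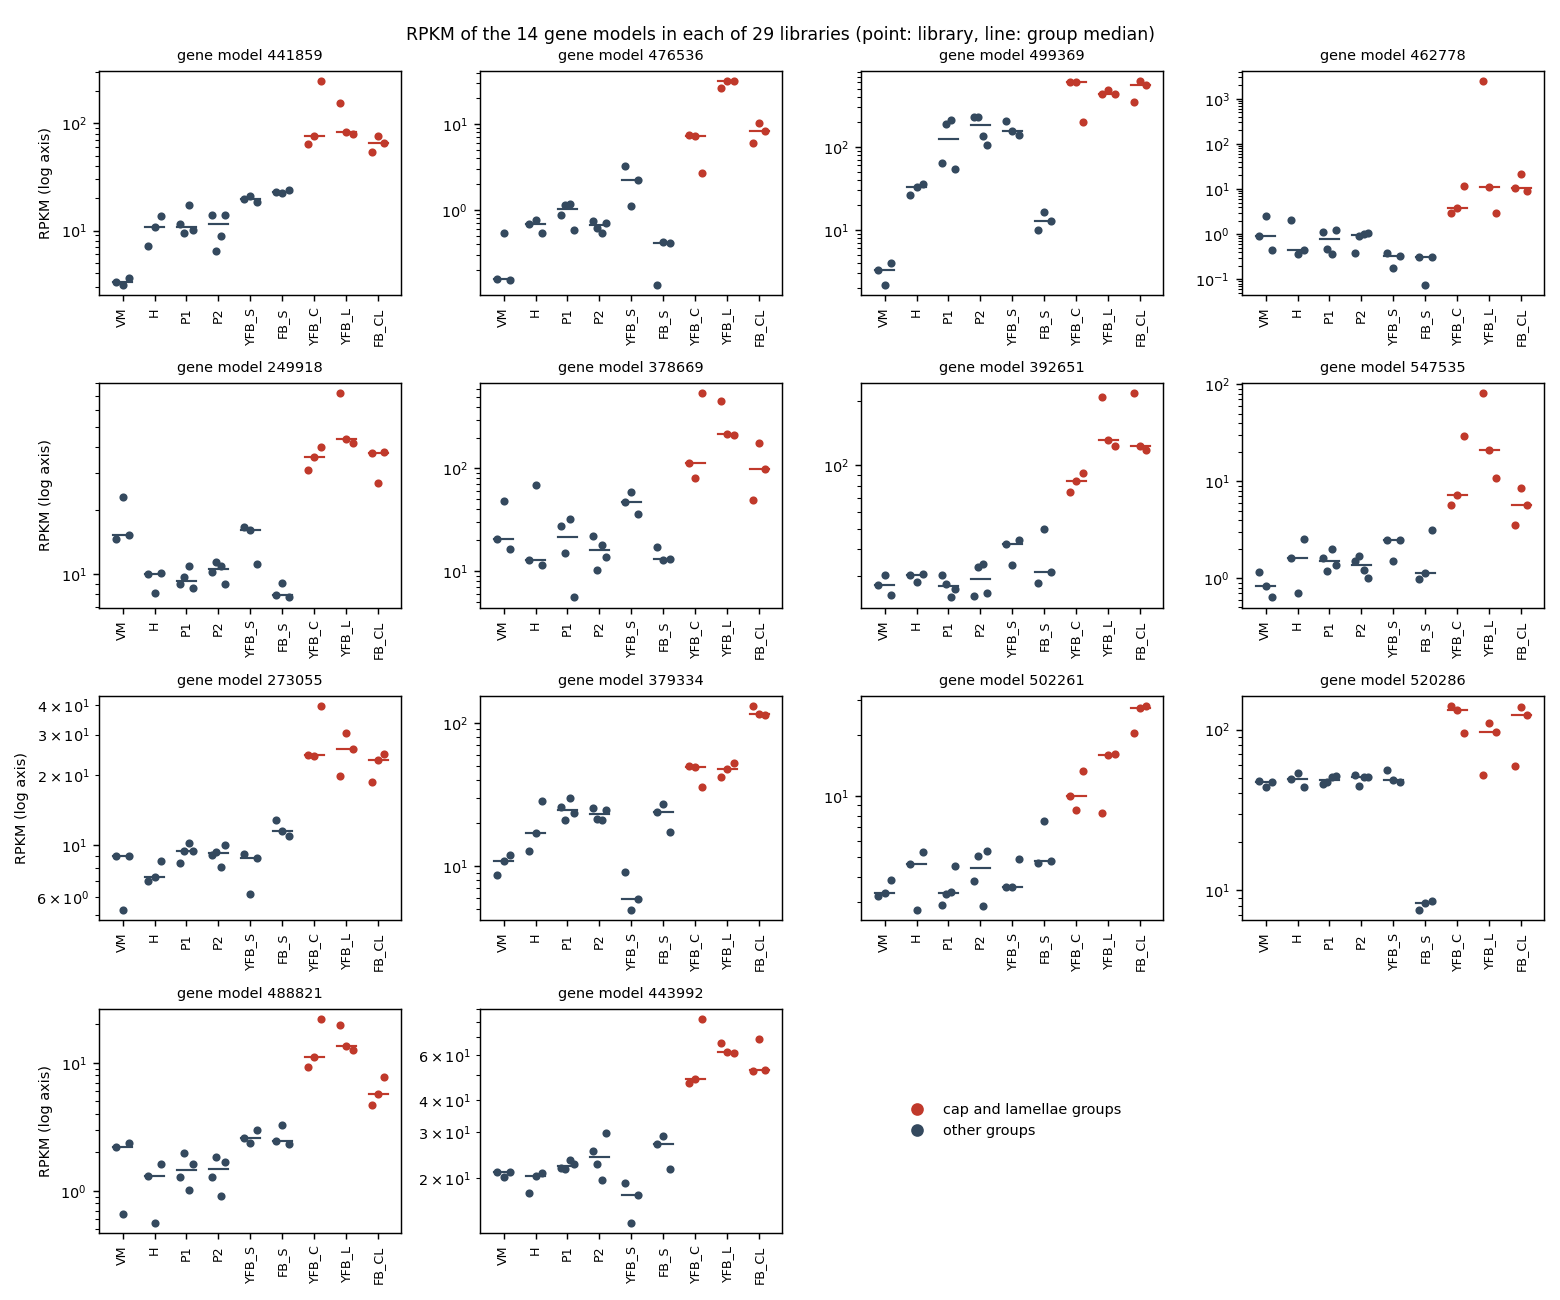
RPKM (log axis) of each of the 14 gene models in the 29 libraries, in 1 panel per gene model, with points for libraries and lines for group medians, red for the 3 cap and lamellae groups and dark for the 6 others. The red points lie above all dark points in 10 panels, while in those of 476536, 499369, 378669 and 520286 the nearest libraries overlap.

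Since the choice was made on group medians, single libraries can still overlap. For 10 of the 14 gene models all 9 cap-side libraries lay above all 20 others, a pattern found in 34 of 12003 gene models or 0.283% of the table, which the rule itself favours. Libraries of the other 4 overlapped, in proportion most for 378669. For 476536, YFB_S replicate 1 at 3.28 RPKM lay above YFB_C replicate 3 at 2.71 RPKM. For 499369, P2 replicates 1 and 2 at 230 and 229 RPKM, P1 replicate 3 at 214 RPKM and YFB_S replicate 1 at 203 RPKM also lay above YFB_C replicate 3, at 202 RPKM. For 378669, H replicate 3 at 69.6 RPKM and YFB_S replicate 2 at 58.9 RPKM lay above FB_CL replicate 1 at 49.7 RPKM, and for 520286, YFB_S replicate 1 at 56.4 RPKM, H replicate 3 at 53.5 RPKM and P2 replicate 1 at 52.1 RPKM lay above YFB_L replicate 1 at 52.0 RPKM. In 3 of these 4 gene models the cap-side library that overlapped was thus one that stood apart from its group.

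At the threshold the set has no natural edge. The gene models just inside the margin were 443992, at 0.82, and 488821, at 0.90. Those just outside were 547677, at 0.79, and 357159, at 0.76, both with cap-side medians that met the limit on the span. The margin was met by 24 gene models, and 10 of these failed the span. Gene model 476536 was just inside the span limit, at 2.00 after rounding, and 426830 was just outside, at 2.16.

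Gene model 441859 had the widest margin, 1.49, and was lowest in mycelium and highest on the cap side. It stood at 3.29, 3.12 and 3.65 RPKM in the 3 libraries of vegetative mycelium, at 7.18, 10.7 and 13.7 in hyphal knots, at 11.6, 9.51, 17.3 and 10.2 in stage 1 primordia and at 14.0, 6.50, 8.96 and 13.9 in stage 2 primordia. In the young stipe it was at 19.8, 21.0 and 18.4 RPKM and in the mature stipe at 22.9, 22.3 and 24.0. On the cap side it was at 64.1, 76.9 and 250 RPKM in young cap, at 156, 82.5 and 80.3 in young lamellae and at 54.3, 75.8 and 66.0 in mature cap with lamellae. The mycelium lay below all other libraries and the cap side above all others. Both stipes lay between the primordia and the cap side in the deposited RPKM. With library size alone the mature stipe had a median of 3.91 on the scale of log2(RPKM + 1). Stage 1 and stage 2 primordia were then above it, at 3.95 and 4.02. The highest values, 250 and 156 RPKM, came from the 2 libraries that stood apart.

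Gene model 499369 was the most abundant of the set by its median in each cap-side group. Its 3 libraries stood at 599, 599 and 202 RPKM in young cap, at 433, 486 and 438 in young lamellae and at 348, 627 and 559 in mature cap with lamellae. It was at 3.26, 2.17 and 3.92 RPKM in mycelium, at 26.2, 33.1 and 35.4 in knots, at 64.6, 188, 214 and 54.7 in stage 1 primordia and at 230, 229, 135 and 106 in stage 2 primordia. The young stipe held 203, 154 and 140 RPKM and the mature stipe 9.97, 16.3 and 12.8. Knots were above mycelium in every library, primordia above knots, and the mature stipe below both primordia and young stipe, while the cap-side groups overlapped each other.

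Gene model 476536, with the next widest margin at 1.36, was a lamellae gene by its level. It was at 26.8, 32.0 and 31.9 RPKM in young lamellae, at 7.45, 7.25 and 2.71 in young cap and at 5.97, 10.3 and 8.26 in mature cap with lamellae. The young stipe held 3.28, 1.11 and 2.21 RPKM and the mature stipe 0.133, 0.423 and 0.404, and the 14 libraries of mycelium, knots and primordia lay between 0.150 and 1.17 RPKM. The lamellae libraries were above all others, and those of the young stipe were above all of the mature stipe.

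The level of gene model 462778 rested on 1 library in young lamellae. It stood at 2508 RPKM in YFB_L replicate 1, from 45221 reads, but at 11.2 and 2.94 RPKM in replicates 2 and 3, from 177 and 59 reads, a ratio of 355 to the mean of those 2. In young cap it was at 3.01, 3.71 and 11.6 RPKM and in mature cap with lamellae at 10.6, 21.7 and 9.21. The 20 libraries of the low groups lay between 0.0751 and 2.49 RPKM, from 0 to 45 reads each, the deposited table giving a small value also where no read was counted. Even the lowest cap-side library, at 2.94 RPKM, was above the highest of these, but only just.

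Gene model 520286 was at an even level outside the cap until the stipe matured. It lay between 43.7 and 56.4 RPKM in the 17 libraries of mycelium, knots, primordia and young stipe, and at 7.52, 8.37 and 8.62 RPKM in the mature stipe. Cap-side libraries were at 140, 133 and 94.6 RPKM in young cap, at 52.0, 110 and 96.4 in young lamellae and at 59.6, 137 and 123 in mature cap with lamellae. The mature stipe was the group far below the rest, and YFB_L replicate 1 lay within the range of the early stages.

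Gene models 379334 and 502261 were highest in the mature cap with lamellae. The first was at 131, 116 and 114 RPKM there, at 49.8, 49.1 and 35.7 in young cap and at 41.6, 47.8 and 52.4 in young lamellae. It was at 9.15, 4.93 and 5.88 RPKM in the young stipe and at 23.7, 27.1 and 17.2 in the mature stipe. The second was at 20.6, 27.5 and 27.9 RPKM in mature cap with lamellae, at 10.0, 8.55 and 13.4 in young cap and at 8.25, 16.1 and 16.2 in young lamellae, against 2.73 to 7.56 RPKM in the 20 low libraries. In both the mature libraries lay above all young cap and lamellae libraries, an order that turned for both against young lamellae when libraries were scaled by their size alone.

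Gene model 378669 varied widely within groups. It stood at 112, 80.8 and 539 RPKM in young cap, at 458, 217 and 214 in young lamellae and at 49.7, 177 and 98.4 in mature cap with lamellae. In the young stipe it was at 47.4, 58.9 and 36.3 RPKM and in the mature stipe at 17.1, 12.9 and 13.1. Within groups of the low side libraries also parted, with 69.6 RPKM in H replicate 3 against 12.7 and 11.4 in the others, and 48.5 RPKM in VM replicate 2 against 20.4 and 16.3. Of the 14 gene models it had the second largest spread within groups after 462778.

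The remaining 6 gene models were separated over all libraries. Gene model 249918 ran from 27.0 to 71.7 RPKM on the cap side and from 7.73 to 23.1 on the low side, 392651 from 74.8 to 217 and from 23.7 to 50.1, and 273055 from 18.7 to 39.7 and from 5.26 to 12.9. Gene model 443992 ran from 46.5 to 82.7 RPKM on the cap side and from 13.4 to 30.0 on the low side, 488821 from 4.71 to 22.1 and from 0.563 to 3.27, and 547535 from 3.52 to 80.7 and from 0.635 to 3.16. For 488821 the 3 libraries of the mature cap with lamellae, at 4.71, 5.70 and 7.80 RPKM, were the cap-side ones nearest to the low groups.

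Against the stipe of the same stage, the contrast that names the set, all 14 gene models were higher by construction, and the sizes are given without a test. In young cap minus young stipe the difference of medians of log2(RPKM + 1) ran from 0.98 for 392651 to 2.86 for 379334, with a median of 1.41. In young lamellae minus young stipe it ran from 0.98 for 520286 to 3.36 for 476536, with a median of 1.96. In the mature fruiting body, cap with lamellae minus stipe, it ran from 0.92 for 443992 to 5.35 for 499369, with a median of 2.17. Over all 12003 gene models the medians of the 3 differences were -0.05, -0.04 and -0.06. The difference was over 1 for 13, 13 and 11 of the 14 gene models.

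**Figure D2:**
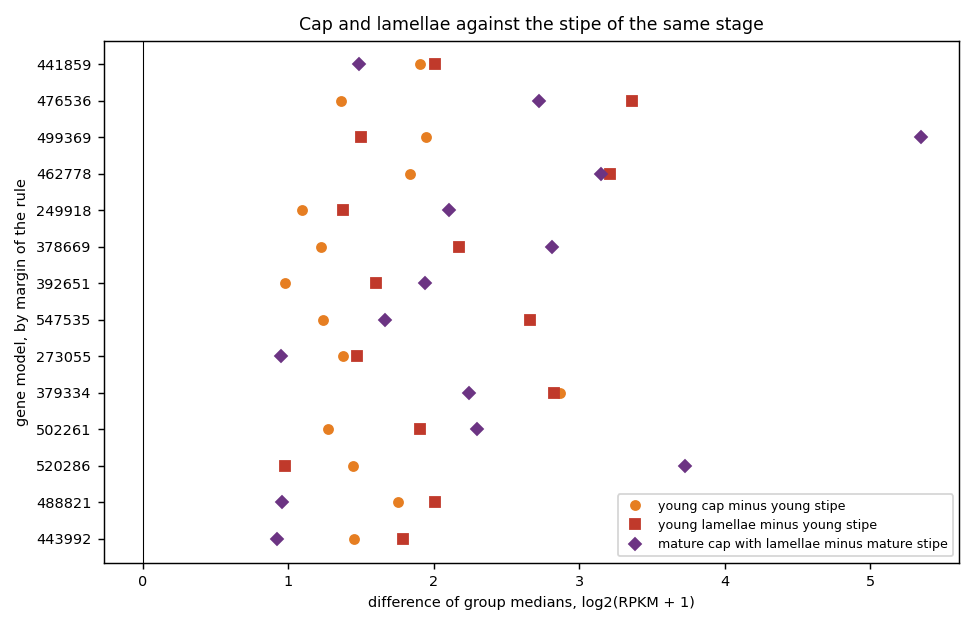
Difference of group medians of log2(RPKM + 1) between cap-side tissue and the stipe of the same stage for the 14 gene models, in order of margin, with circles for young cap, squares for young lamellae and diamonds for mature cap with lamellae. All points lie right of 0, from 0.92 to 5.35, and the diamond of 499369 is the farthest right.

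The cap side was not uniform. Young lamellae had the highest of the 3 medians for 10 gene models, young cap for 2, 499369 and 520286, and mature cap with lamellae for 2, 379334 and 502261. The 3 medians lay within 1 of each other for 7 gene models and between 1 and 2 apart for the other 7. The smallest span was 0.16, for 273055, whose medians were 24.4, 26.1 and 23.3 RPKM in young cap, young lamellae and mature cap with lamellae. At the other end, 476536 had medians of 7.25, 31.9 and 8.26 RPKM.

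Since the rule limits this span, the differences within the cap side are also given without a test. Lamellae libraries lay above all young cap libraries for 3 gene models, 476536, 249918 and 392651, and below all of them for 0, against 24.4% and 25.2% of the table. Mature cap with lamellae lay above all young cap libraries for 392651, 379334 and 502261 and below all of them for 488821, against 30.1% and 30.0% of the table. It lay above all young lamellae libraries for 379334 and 502261, against 30.3%, and below all of them for 6, namely 441859, 476536, 249918, 378669, 547535 and 488821, against 32.0%. These shares are near or below those of all gene models apart from the count of 6, and nothing is read from them, as the rule used the same values. The order also depends on the scaling, since with library size alone young lamellae had the highest median of the 3 for all 14.

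Both libraries that stood apart carried some of the set's highest values. YFB_C replicate 3 was above both other young cap libraries for 10 gene models and below both for 4. It was at least 2-fold above their mean for 441859, 462778, 378669, 547535 and 488821, and at least 2-fold below it for 476536 and 499369. YFB_L replicate 1 was above both other lamellae libraries for 8 and below both for 6, and at least 2-fold above their mean for 462778, 378669 and 547535. The largest of these ratios other than that of 462778 were 5.59 for 378669 in YFB_C replicate 3 and 5.07 for 547535 in YFB_L replicate 1. Without both libraries the rule kept 13 gene models, all of them of the 14, and lost 443992.

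Membership rested on the scaling of the libraries. The deposited RPKM follow TMM scaling, which assumes that most genes do not differ between libraries. They were set against RPKM recomputed from the counts with TMM factors. Deposited minus recomputed log2 RPKM was taken as a median per library, over 5134 gene models with at least 100 reads in every library. These medians differed between libraries by at most 0.00434 log2 units. The mean factor ran from 1.41 ± 0.0644 in mycelium (SD, n = 3) to 1.19 ± 0.271 in young lamellae, 0.753 ± 0.168 in young cap and 0.459 ± 0.0387 in mature cap with lamellae (SD, n = 3 each). In the young and the mature stipe it was 0.9905 ± 0.1005 and 0.626 ± 0.0229 (SD, n = 3 each). Low factors were thus not confined to the cap side. With library size alone, the median difference over all 12003 gene models between mature cap with lamellae and stage 2 primordia moved from -0.04 to -1.28 on the scale of log2(RPKM + 1). The rule then kept 3 gene models and none of the 14, whose margins ran from -0.42 to 0.75 with a median of 0.01 and were above 0 for 7.

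Other features of the pattern kept their direction under both scalings. The 14 gene models were chosen on these same libraries, so this is partly built in and is given as a description only. With library size alone, young cap and young lamellae were still above all 6 low groups for 14 of 14 gene models. On the scale of log2(RPKM + 1), the lower of these young medians led by 0.26 to 1.67, and young lamellae by 0.91 to 3.73. Each cap-side group was also still above the stipe of the same stage for 14 of 14. In the young fruiting body the lower of cap and lamellae led by 0.54 to 2.53. In the mature fruiting body cap with lamellae led by 0.45 to 4.72. The mature cap with lamellae became the lowest of the 3 cap-side groups for 11 of 14. Its median stayed above those of mycelium, knots and both primordia for 9 of 14, but not for 249918, 273055, 520286, 488821 and 443992. The share of all reads that fell on the 14 gene models, which no factor touches, was 0.216% to 0.314% in young lamellae and 0.107% to 0.139% in young cap. In mature cap with lamellae it was 0.0688% to 0.0822%, within reach of the 0.0622% to 0.0799% of stage 2 primordia, and in the mature stipe it was 0.0154% to 0.0187%. The 0.314% was that of YFB_L replicate 1, where 45221 of 101031 reads on the 14 came from 462778. Without this gene model the share was 0.173% in that library and 0.173% to 0.224% over young lamellae.

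**Figure D3:**
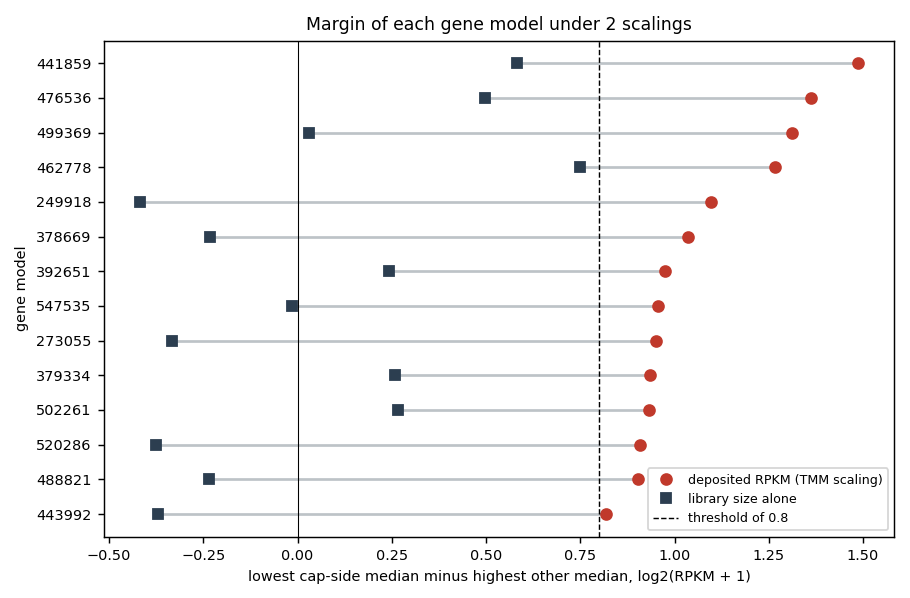
Margin of each of the 14 gene models, the lowest cap-side median minus the highest other median of log2(RPKM + 1), with the deposited RPKM (red circles) and with library size alone (dark squares); the dashed line is the threshold of 0.8. All circles lie at 0.82 or more and all squares below the threshold, 7 of them above 0.

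The rule capped the 6 low groups but did not set the differences among them, so these were tested with edgeR's quasi-likelihood test on the deposited counts. A gene model was called where its Benjamini-Hochberg adjusted p over all 11990 tested was under 0.05 and its change at least 2-fold, and all 14 gene models passed the filter on low counts. Anywhere among the 6 groups, 4 of 14 differed by at least 4-fold between the highest and lowest group (F test, edgeR adjusted p), against 55.0% of all gene models. These were 499369 at a log2 range of 5.83 (edgeR adjusted p = 1.28e-09), 476536 at 2.98 (2.33e-05), 441859 at 2.79 (4.02e-05) and 520286 at 2.64 (8.87e-08). The rule put a ceiling on all 6 groups, so nothing is read from the low share. With library size alone 7 of 14 were called, against 61.8% of all gene models. No label ties replicates to separate cultures, and the p-values therefore reflect only how these libraries vary, which may be technical in part.

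At the onset of fruiting, hyphal knots against mycelium, 2 of 14 gene models rose and 0 fell, where 11.0% of all gene models rose and 8.98% fell. Gene model 499369 rose from 3.12 ± 0.885 RPKM in mycelium to 31.6 ± 4.78 in knots (SD, n = 3 each), or 3.36 on the log2 scale (± 0.49 SE, adjusted p = 2.57e-05 in edgeR). Gene model 441859 rose from 3.35 ± 0.269 to 10.5 ± 3.28 RPKM (SD, n = 3 each), or 1.66 on the log2 scale (± 0.40 SE, adjusted p = 0.00397 in edgeR). In both, each knot library was above each mycelium library. The median log2 change was 0.13 over the 14 and -0.02 over all gene models. Without VM replicate 3 the count was 4, with 379334 higher and 249918 lower as well, both named after their values were seen.

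Stage 2 primordia against the same mycelium libraries gave 3 risers and 0 fallers, against 11.2% and 14.1% of all gene models. The log2 change was 5.83 ± 0.54 (SE) for 499369, at an adjusted p of 1.84e-08 in edgeR, with 175 ± 63.8 RPKM in primordia (SD, n = 4). For 441859, at 10.8 ± 3.73 RPKM in primordia (SD, n = 4), it was 1.70 ± 0.39 (SE), at an adjusted p of 0.00152 in edgeR. The other riser was 379334, from 10.4 ± 1.69 RPKM (SD, n = 3) to 23.1 ± 2.17 (SD, n = 4), or 1.15 on the log2 scale (± 0.25 SE, adjusted p = 0.00106 in edgeR). The ranges of the groups did not overlap for any of the 3. Median log2 changes were 0.24 over the 14 and -0.06 over all.

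From knots to stage 1 primordia 1 of 14 rose and 0 fell, against 1.01% and 4.13% of all gene models. It was again 499369, from 31.6 ± 4.78 RPKM (SD, n = 3) to 130 ± 82.2 (SD, n = 4), or 2.04 on the log2 scale (± 0.44 SE, adjusted p = 0.00820 in edgeR). All 4 primordium libraries were above all 3 knot libraries, but a fit to these 2 groups alone did not call it (log2 change 2.08, edgeR adjusted p = 0.106). The median log2 change was 0.10 over the 14 and -0.04 over all.

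Between stage 2 and stage 1 primordia 0 of 14 were called in either direction by edgeR, against 0% of all gene models in each. At an unadjusted p under 0.05 there were 0 of the 14 and 212 of all 11990. DESeq2 called 1 gene model of the whole table, none of the 14, and limma 0. Median log2 changes were -0.00 over the 14 and 0.00 over all.

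In the young stipe against stage 2 primordia 2 of 14 rose and 1 fell, against 17.8% and 21.1% of all gene models. Gene model 476536 rose from 0.649 ± 0.0922 RPKM (SD, n = 4) to 2.20 ± 1.08 (SD, n = 3), or 1.78 on the log2 scale (± 0.42 SE, adjusted p = 0.00121 in edgeR). With limma on log2(RPKM + 1), a scale that shrinks changes of low genes, it changed by 0.90 and was not called. Gene model 378669 rose from 15.9 ± 5.06 RPKM (SD, n = 4) to 47.5 ± 11.3 (SD, n = 3), or 1.58 on the log2 scale (± 0.65 SE, adjusted p = 0.0465 in edgeR) with no overlap of libraries. That call was lost in 9 of 18 alternatives, with log2 changes down to 1.08, among them the fit with the replicate number as a block (1.27, edgeR adjusted p = 0.120) and those without P2 replicate 2, 3 or 4 or any of the 3 young stipe libraries (1.40 to 1.74).

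Gene model 379334 fell from 23.1 ± 2.17 RPKM in stage 2 primordia (SD, n = 4) to 6.65 ± 2.22 in the young stipe (SD, n = 3), or -1.79 on the log2 scale (± 0.26 SE, adjusted p = 5.80e-06 in edgeR). All 3 stipe libraries were below all 4 of the primordia. With library size alone the split of all gene models moved from 2130 higher and 2529 lower to 1156 and 3843, and the change of 379334 to -2.26. Over the 14 the median log2 change was 0.25, and over all gene models it was 0.00.

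As the stipe matured, 1 of 14 rose and 4 fell, against 23.1% and 23.5% of all gene models. Gene model 379334 rose from 6.65 ± 2.22 to 22.7 ± 5.04 RPKM (SD, n = 3 each), or 1.76 on the log2 scale (± 0.27 SE, adjusted p = 6.90e-06 in edgeR), and 1.07 with library size alone. This comparison shares the young stipe libraries with the one before, so the fall and the rise of this gene model are not independent. Its mature stipe level was 22.7 RPKM beside 23.1 in stage 2 primordia, while with library size alone the medians of log2(RPKM + 1) were 3.96 and 5.08.

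Gene model 499369 fell from 166 ± 32.9 RPKM in the young to 13.0 ± 3.17 in the mature stipe (SD, n = 3 each), or -3.68 on the log2 scale (± 0.49 SE, adjusted p = 1.25e-06 in edgeR). Gene model 520286 fell from 50.7 ± 4.98 to 8.17 ± 0.578 RPKM (SD, n = 3 each), or -2.64 on the log2 scale (± 0.27 SE, adjusted p = 2.67e-08 in edgeR). Gene model 476536 fell from 2.20 ± 1.08 to 0.320 ± 0.162 RPKM (SD, n = 3 each), or -2.92 on the log2 scale (± 0.54 SE, adjusted p = 7.18e-05 in edgeR), or -1.23 with limma on log2(RPKM + 1). The size of this fall rests on few reads, 146, 35 and 55 in the young and 2, 6 and 7 in the mature stipe libraries. In all 3 gene models each young stipe library was above each mature one, and all 3 stayed called in all 17 alternatives.

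Gene model 378669 was the fourth to fall, from 47.5 ± 11.3 to 14.3 ± 2.35 RPKM (SD, n = 3 each), or -1.73 on the log2 scale (± 0.73 SE, adjusted p = 0.0458 in edgeR). It lost its call without YFB_S replicate 1 or 2 or any of the 3 mature stipe libraries, at log2 changes of -1.55 to -1.88 (edgeR adjusted p up to 0.111). The median log2 change was -0.22 over the 14 and -0.01 over all gene models. Under library size alone the excess of fallers among all gene models grew, with 1671 higher and 4507 lower, and 1 of the 14 rose and 5 fell.

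**Figure D4:**
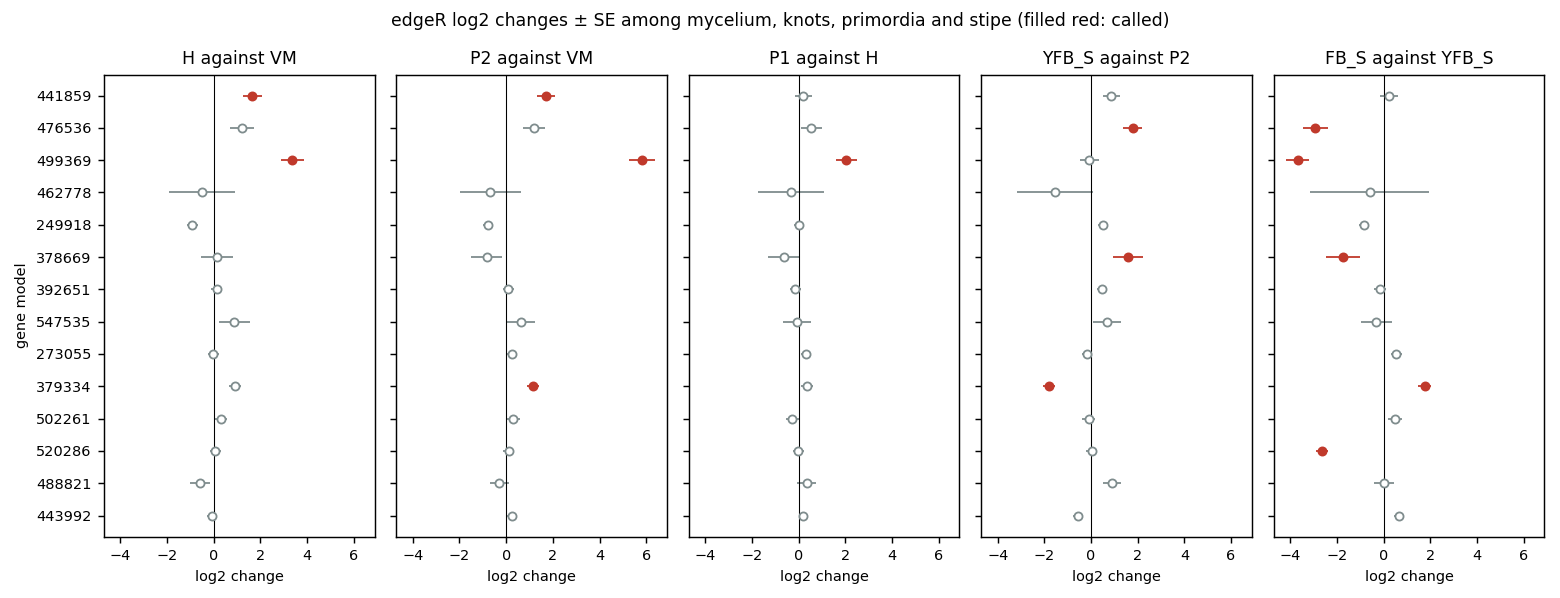
Log2 changes with SE from the edgeR fit for the 14 gene models in 5 comparisons among mycelium, hyphal knots, primordia and stipes, with filled red points for those called. Filled points lie right of 0 in the first 3 panels, and in the last panel 4 of 5 lie left of 0; stage 2 against stage 1 primordia, with 0 called, is not drawn.

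Over these comparisons 6 gene models, 441859, 476536, 499369, 378669, 379334 and 520286, accounted for all calls. In the main fit, with TMM scaling of all 29 libraries and no block, the other 8 were called in none of the 6 comparisons. Among them, 273055, 392651, 443992 and 502261 had log2 changes between -0.56 and 0.65 in every comparison. Under some alternatives 4 of the 8 were called. With library size alone these were 443992 in the young stipe against stage 2 primordia (-1.04), and 249918 in knots against mycelium (-1.02) and on stipe maturation (-1.49). In the young stipe against stage 2 primordia 488821 was called with the replicate number as a block (1.01) and 462778 in the fit to these 2 groups alone (-1.67). Gene model 249918 was also called in knots against mycelium without VM replicate 1 or 3 (-1.03 and -1.01).

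The rule used neither the length of a gene model nor how uniquely its reads were placed. The 14 gene models were 642 to 3118 bases long with a median of 1493, against a median of 1315 over the table. Reads were placed on 1 gene model only in 100% of cases for 11 of the 14, and in 97.7% for 476536, 98.9% for 520286 and 99.3% for 441859. The mean level and the spread come from the same RPKM that the rule used and are given as a description. Mean RPKM over the 29 libraries ran from 4.91 for 488821 to 212 for 499369, with a median of 34.2 against 20.2 over the table. The mean SD within groups of log2(RPKM + 1) had a median of 0.29 against 0.32 over the table, with 462778 at 0.97 and 378669 at 0.81 as the most variable and 443992 at 0.19 as the steadiest.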

How the data were processed

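Polyadenylated RNA of 29 libraries in 9 groups was sequenced from TruSeq v2 libraries, per the labels' protocols. Strand is not kept by this kit, and genes that overlap could share reads. The authors deposited a table of log2 RPKM for 12003 gene models, and per library the total and unique read counts of 14242 gene models, with their lengths, per the file headers. The submitters' processing notes list limma 3.18.13, edgeR 3.4.2 and R 3.0.2. Mapper and genome build were not given in the sources used here. Groups and replicate numbers were taken from sample titles.

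Gene models were chosen on group medians of log2(RPKM + 1), computed from the authors' log2 RPKM, with a margin of 0.8 and a span of 2. The members, the comparisons and the naming rule were chosen with earlier results of these data known. No test was made of cap-side groups against the rest or against each other, since the rule used those values.

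Total counts were tested with edgeR 4.0.16 in R 4.3.3. The function filterByExpr kept 11990 gene models, TMM factors scaled the libraries, and a quasi-likelihood fit covered all 29 of them. Calls needed an adjusted p under 0.05 and a 2-fold change, or 4-fold for the F test over 6 groups. The SE is the size of a log2 change divided by the square root of its F statistic. The test was checked on simulated data. Precision is limited by 3 or 4 libraries per group and, for 462778, by few reads.

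By the rule for naming, gene models were the 2 widest margins, the 2 highest cap-side means, those next to the thresholds, the 2 leading in each cap-side group, the 2 with the fewest reads in the low groups, the 2 with the highest low medians, and up to 2 risers and 2 fallers called per comparison with libraries that did not overlap. The other gene models of the 14 are given because they are members, so values for them were chosen by membership alone. Alternatives were RLE or library size scaling, no filter or 10 CPM in 3 libraries, DESeq2 1.42.0, limma 3.58.1 on log2 RPKM with a pseudocount of 1 or 0.1, the replicate number as a block, the first flow cell alone (without replicate 4 of H, P1 and P2), only the groups compared, and leaving out each library or YFB_C replicate 3 with YFB_L replicate 1.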

Additional observations from a re-analysis of the deposited data

How the results depend on the processing

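The number of gene models meeting the rule was 14. It was 22 with group means, of which 10 were among the 14, 16 with a pseudocount of 0.1, 30 and 4 with margins of 0.5 and 1.2, 7 with a span under 1, 24 without a limit on the span and 3, none of them among the 14, with library size alone. Leaving out each library gave 12 to 25, with 24 and 25 without YFB_C replicates 1 and 2, and 4 gene models (441859, 499369, 249918 and 392651) were kept whichever library was left out. The first flow cell alone gave 15, all 14 included. Its fit called 2 members in H against VM, 3 in P2 against VM and 3 in YFB_S against P2, the same counts as the main fit. In YFB_S against P2 it called 441859 in place of 378669.

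Called members in knots against mycelium numbered 2 to 4 when a library was left out. For stage 1 primordia against knots the fit to these 2 groups alone called 0 of the 14, and library size alone called 7 in the F test over the 6 low groups. Over all gene models the call count moved by over 1.5 times in that comparison of P1 with H alone, from 616 to 1 in the fit to the 2 groups, 1088 on the first flow cell, 1031 without YFB_C replicate 3 and YFB_L replicate 1, 363 and 359 with limma, and 232 to 1014 when a library was left out.

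With the replicate number as a block (replicate block), 2 members were called in H against VM, 4 in P2 against VM, 1 in P1 against H, 0 in P2 against P1, 3 in YFB_S against P2, 5 in FB_S against YFB_S and 4 in the F test. The deviations of libraries with the same number correlated at -0.193 to 0.468 and in no comparison all above 0.1. The numbers were therefore not taken to pair the libraries. The value of 0.468 was that of replicate 4 in P2 against P1, libraries that are both left out of the first flow cell alone. No called change of a member reversed under any alternative run. With 3 or 4 libraries a group, small changes may go uncalled, and the level of 462778 on the low side rests on 0 to 45 reads a library.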
